A study of Arabidopsis thaliana with 4 samples.

Results

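The genes described here are the 97 of 23932 features of the deposited expression table whose biological process annotation holds the exact term ribosome biogenesis. The term stood in 104 rows, and 7 of them were left out because they also carried translational elongation. The name of the term covers more than its members: by their RefSeq products, 85 of the 97 genes encode ribosomal proteins or the ribosome-bound protein RACK1, and 12 encode assembly or processing factors. In 82 of the 97 rows the annotation rests on sequence similarity (evidence code ISS). By product, 45 genes encode proteins of the cytosolic large subunit, 14 of the cytosolic small subunit (both RACK1 genes included) and 11 of the plastid ribosome. A further 15 encode bacterial-type proteins of the mitochondrial ribosome or of an organelle that the product does not name. The genes therefore describe mainly the parts of ribosomes, and only in small part the machinery that builds them.

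Ribosome biogenesis starts in the nucleolus, where ribosomal RNA is transcribed, cut and modified with the help of small nucleolar RNPs. Ribosomal proteins made in the cytosol are carried back into the nucleus, and assembly factors join them to the RNA and escort both subunits to the cytosol. Plastids and mitochondria hold their own bacterial-type ribosomes, most proteins of which are encoded in the nucleus. A germinating seed relies first on stored ribosomes and then makes new ones, and abscisic acid (ABA), the hormone that keeps seeds dormant, holds back this transition.

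RNA was sequenced from whole Arabidopsis thaliana seedlings of the Col-0 wild type and of plants overexpressing ZFP3, a zinc finger protein (ZFP3ox), with 1 sample per genotype and treatment. All seeds, wild type included, were germinated on 5 µM estradiol, which induces the transgene. The control samples of both genotypes had estradiol alone and were taken at 36 h. The ABA samples of both genotypes also had 2.5 µM ABA and were taken at 84 h, when the root had reached the same stage per the labels. The effects of ABA and of the later harvest cannot be told apart. The labels do not say how many seedlings were pooled, or how many independent ZFP3ox lines were used.

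Each sample has 2 columns of RPKM values (reads per kilobase of exon, divided by library size), called column set 1 and column set 2 here. Neither labels nor headers say how the sets differ, so both columns of a sample are 1 replicate and no comparison of single samples has a test. Ratios are log2 differences of log2(RPKM + 1) within a set, or their mean over both sets. Whole-read steps in the low values gave 2.61 to 4.08 Mreads (M, mega) per sample in set 1, and the depth of set 2 is unknown. ZFP3 itself had a mean log2 ratio of 4.24 between ZFP3ox and wild type without ABA and 3.44 with ABA. Where 4 values of a gene or class follow each other, they stand in the order wild type without ABA, wild type with ABA, ZFP3ox without ABA, ZFP3ox with ABA. In bulk seedlings, fewer cells of a type and less RNA per cell cannot be told apart.

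Members of the cytosolic ribosome were among the strongly expressed genes in column set 1. The large-subunit genes had medians of 160.9, 82.8, 133 and 47.8 RPKM, beside 11.01, 14.1, 13.6 and 15.9 over all features kept. The small-subunit genes had medians of 133, 82.1, 104 and 53.1 RPKM. In both classes the controls were above the ABA samples, and ZFP3ox was below wild type in each treatment. Of the 57 cytosolic genes that passed the filter on low values (at least 1 RPKM in both columns of at least 1 sample), 50 were highest in wild-type control and 53 lowest in ZFP3ox ABA. These counts of extreme samples were not made over all features. The filter kept 95 of the 97 genes, and removed AT3G48960 (L13) and AT3G10950 (L37a), whose values in set 2 lay between 0.30 and 0.78 RPKM.

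Column set 2 gave another order for the same genes. The large-subunit medians were 8.17, 13.4, 11.6 and 10.1 RPKM, beside 4.47, 4.33, 3.48 and 4.23 over all features kept. Here 42 of the 57 cytosolic genes were lowest in wild-type control, the sample in which most of them were highest in set 1. This count, too, was not made over all features. The level in set 1 was a median of 16.7 times that in set 2 over the 95 genes in wild-type control, but 6.09, 9.30 and 5.33 times in the other samples. Over all 22646 features kept, the same ratio lay between 2.77 and 4.26. Gene length moved with it: features with 600 to 1000 exon bases had a median ratio of 5.18 in wild-type control and the 53 members of that length 19.5. The cytosolic genes thus carry a gap between the sets that is widest in the wild-type control.

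**Figure D1:**
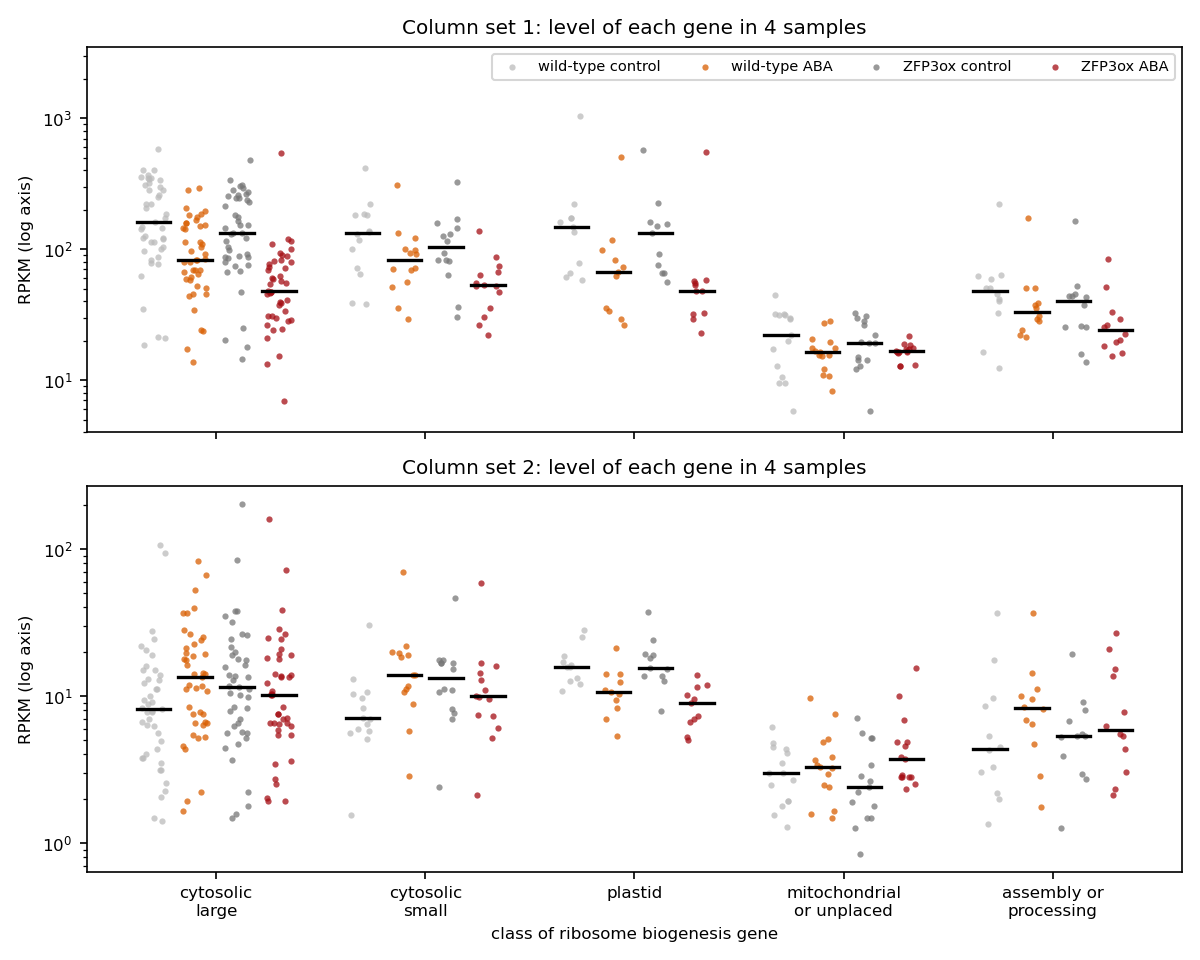
RPKM (log axis) of the 95 ribosome biogenesis genes that passed the filter, by class and sample, in column set 1 (top) and column set 2 (bottom); each point is a gene and each black bar a class median. In set 1 the cytosolic medians are highest in wild-type control (160.9 RPKM for the large subunit) and lowest in ZFP3ox ABA (47.8), whereas in set 2 they are lowest in wild-type control (8.17).

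**Figure D2:**
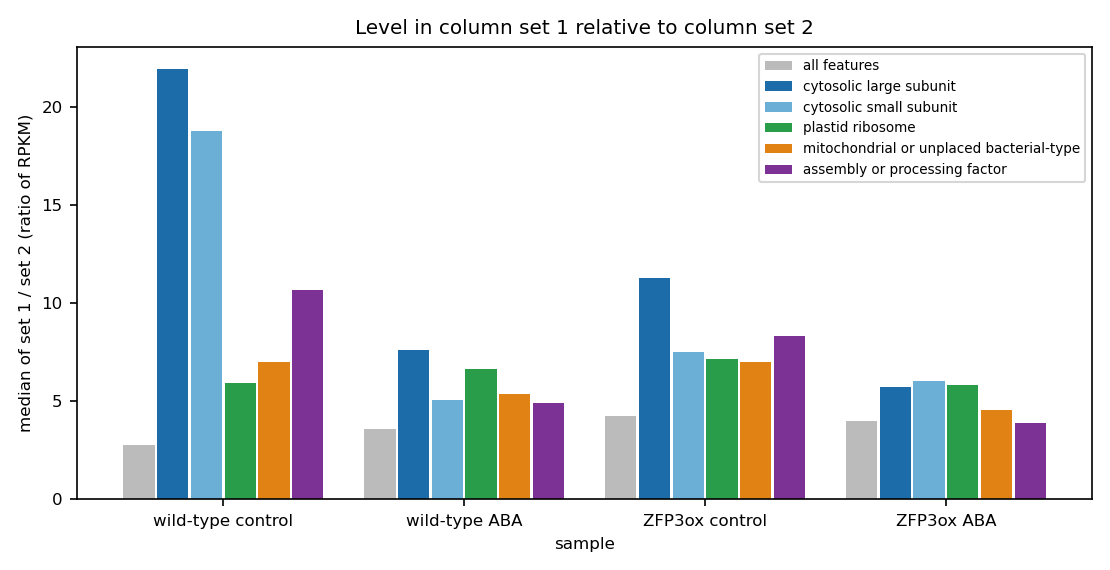
Median ratio of RPKM in column set 1 to RPKM in column set 2 (linear axis from 0) for each class of ribosome biogenesis gene and for all 22646 features kept, in each sample. The ratio of cytosolic large-subunit genes is 22.0 in wild-type control and 5.70 to 11.3 in the other samples, and that of plastid genes is 5.82 to 7.15 in all 4.

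Ranked by the mean log2 RPKM over the 4 samples of set 1, the highest level among the members was that of PRPL11, which encodes protein L11 of the plastid large subunit, with 1038, 509, 567 and 548 RPKM in set 1. AT4G18100 (L32) followed with 587, 295, 481 and 538 RPKM. In both genes the set 1 value of ZFP3ox ABA was above that of wild-type ABA, unlike in most of their classes. The scaffold gene ATARCA, which encodes RACK1A, had 414, 311, 329 and 138 RPKM, and emb2386 (L19) had 406, 283, 340 and 119. AT3G09500 (L35) completed the 5 highest with 283, 205, 296 and 115 RPKM. On the same measure in set 2 the highest genes were instead AT4G29410 (L28) with 106, 83.2, 202 and 160.4 RPKM and AT5G46430 (L32) with 27.8, 66.1, 84.6 and 72.1, whose set 1 levels of 161, 114, 132 and 59.9 RPKM and 120.5, 82.6, 97.8 and 46.9 RPKM were nearer the class medians. The bacterial-type genes of mitochondria or unplaced organelles were the lowest class, with medians of 16.4 to 22.2 RPKM in set 1, against 2.42 to 3.73 in set 2.

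Upstream sequence was read for the members because ribosomal protein genes of Arabidopsis are known to carry the telo box (AAACCCTA) and site II elements (TGGGCC or TGGGCT) in their promoters. Both motifs were searched on both strands in the 250 bases before the gene start of the RefSeq annotation of TAIR10.1, and neither motif contains the other. A site II element stood in 53 of the 95 members kept (55.8%) and in 20.4% of the 22276 upstream windows of features kept. A telo box stood in 14 of the 95 members (14.7%) and in 4.40% of all windows. The cytosolic large-subunit genes held a telo box in 11 of 43 windows and a site II element in 29 of 43. The small-subunit genes held no telo box in 14 windows and a site II element in 7, and the plastid genes held no telo box in 11 windows and a site II element in 5. A match is a description of these letters only.

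The windows below are shown as examples of these arrangements and come from genes whose window overlaps no neighbouring gene. The first 3 are the 2 large-subunit genes with both motifs and the small-subunit gene with a site II element that had the highest levels in set 1. The other 2 are the plastid genes of lowest ABA ratio in wild type among those without such an overlap. Each runs 5′ to 3′ on the strand of its gene and ends at the base before the gene start, with motif letters in capitals. BBC1 (L13) lies on the minus strand and its window is chr3:18168701-18168950. AT3G22230 (L27) lies on the minus strand (chr3:7844598-7844847) and ATARCA (RACK1A) on the plus strand (chr1:6221951-6222200). GHS1 (plastid S21) lies on the plus strand (chr3:10017071-10017320), as does PRPL11 (plastid L11, chr1:11955406-11955655).
BBC1: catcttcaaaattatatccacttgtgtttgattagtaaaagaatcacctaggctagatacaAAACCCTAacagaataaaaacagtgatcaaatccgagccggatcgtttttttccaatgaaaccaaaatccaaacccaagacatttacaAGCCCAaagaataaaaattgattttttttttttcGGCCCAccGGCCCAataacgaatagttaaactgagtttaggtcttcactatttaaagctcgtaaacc
AT3G22230: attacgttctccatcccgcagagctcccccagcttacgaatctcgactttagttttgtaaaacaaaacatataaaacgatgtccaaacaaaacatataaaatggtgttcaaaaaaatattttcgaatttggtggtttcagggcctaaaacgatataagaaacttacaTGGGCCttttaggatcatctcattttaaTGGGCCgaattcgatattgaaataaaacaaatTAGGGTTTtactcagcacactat
ATARCA: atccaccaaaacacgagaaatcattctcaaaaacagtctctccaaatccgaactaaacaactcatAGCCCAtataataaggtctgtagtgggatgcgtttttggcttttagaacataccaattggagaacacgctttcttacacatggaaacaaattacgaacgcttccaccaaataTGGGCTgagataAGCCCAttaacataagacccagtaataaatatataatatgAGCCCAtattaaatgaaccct
GHS1: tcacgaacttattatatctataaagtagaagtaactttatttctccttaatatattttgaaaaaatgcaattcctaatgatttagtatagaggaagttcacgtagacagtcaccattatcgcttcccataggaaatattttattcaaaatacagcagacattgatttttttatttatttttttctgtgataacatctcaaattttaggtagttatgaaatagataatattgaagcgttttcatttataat
PRPL11: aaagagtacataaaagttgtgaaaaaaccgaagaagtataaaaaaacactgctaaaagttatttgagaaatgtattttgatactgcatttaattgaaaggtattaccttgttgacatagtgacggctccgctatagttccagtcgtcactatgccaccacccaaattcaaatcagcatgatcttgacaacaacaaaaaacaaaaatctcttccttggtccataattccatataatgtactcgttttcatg
BBC1 held 1 telo box and 3 site II elements, AT3G22230 held 1 and 2, and ATARCA held 4 site II elements. Neither plastid window held a match. Among the 57 cytosolic genes, the 8 with both motifs had a median ABA log2 ratio in wild type of -0.81 in set 1 and 1.0 in set 2, beside -0.85 and 0.68 for the other 49.

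ABA against control in wild type asks how the hormone and the later harvest together changed these transcripts. The plastid ribosomal protein genes stood out by direction: 11 of 11 were lower with ABA in both column sets, with a median log2 ratio of -1.04 in set 1 and -0.53 in set 2. The cytosolic genes had no common direction, since 55 of 57 were lower in set 1 (median -0.85) and 50 of 57 higher in set 2 (median 0.72), and 48 did both. Of all features, 13.2% were lower in set 1 and higher in set 2. In the mean of the sets, 4 of 95 members were at least 2-fold lower, beside 2.86% of all features. None of 95 was at least 2-fold higher, beside 4.65% of all features. Taken alone, set 1 had 28 of 95 at least 2-fold lower, beside 4.86% of all features, and set 2 had 18 of 95 at least 2-fold higher, beside 6.59%. Both sets were lower, by any size, for 25 of 95 members and 18.2% of all features. By at least 2-fold in both sets, 3 of 95 were lower, where 1.37% of all features were. Those 3 were AT1G26880, GHS1 and emb2184, and each is listed in the authors' deposited table of genes lower with ABA, which was selected on these samples.

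GHS1, which encodes protein S21 of the plastid small subunit and was named for glucose hypersensitivity of its mutant, had 222, 66.4, 224 and 55.3 RPKM in set 1. In set 2 the values were 18.7, 8.29, 15.5 and 9.48 RPKM. Both ABA samples were below both control samples in each set. The mean log2 ratio was -1.40 in wild type and -1.33 in ZFP3ox.

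The gene emb2184, which encodes plastid L31 and whose mutant arrests as an embryo, had 77.8, 35.4, 75.3 and 29.4 RPKM in set 1 and 13.3, 5.34, 13.6 and 5.04 in set 2. Its wild-type ratios were -1.12 and -1.17 and its ZFP3ox ratios -1.33 and -1.27 in sets 1 and 2. RPL9, the plastid L9 gene, had 172, 62.2, 150.1 and 47.8 RPKM in set 1 and 10.9, 7.0, 12.6 and 5.24 in set 2. For both genes, too, each ABA value lay below each control value of its set.

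The other plastid genes had the same direction with smaller or less even ratios. AT1G64510 (plastid S6) had a mean log2 ratio of -0.98 in wild type and -0.94 in ZFP3ox, and AT5G65220 (plastid L29) had -0.80 and -1.21. AT3G15190 (plastid S20) had -0.36 in wild type, the value nearest 0 in its class, and -1.29 in ZFP3ox. PRPL11 had -0.78 in wild type and -0.30 in ZFP3ox, where its set 1 ratio was -0.05. AT4G17560, 1 of the 2 plastid L19 genes, had -0.45 and -0.47, while its paralogue AT5G47190 had -0.74 and -1.20.

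**Figure D3:**
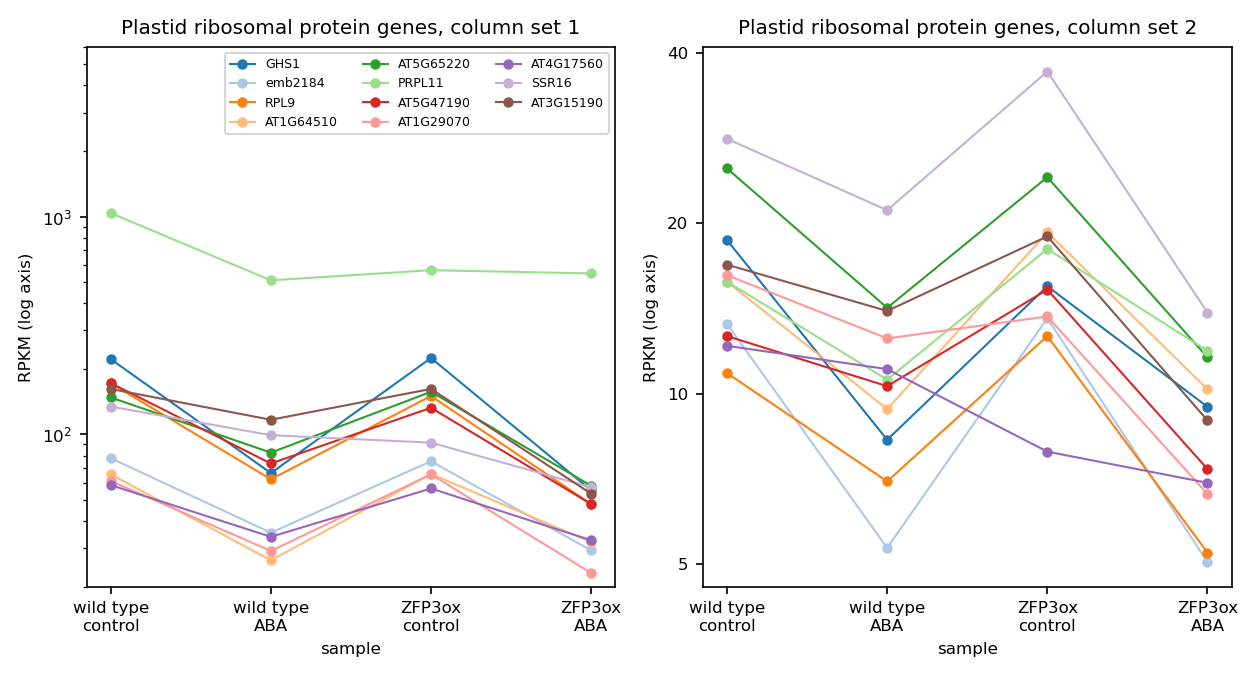
RPKM (log axes, with different ranges) of the 11 plastid ribosomal protein genes in the 4 samples, for column set 1 (left) and column set 2 (right); lines join the values of 1 gene. In both sets each gene is lower in the ABA sample than in the control sample of the same genotype, with PRPL11 in ZFP3ox nearly level in set 1 (567 and 548 RPKM).

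Markers of photosynthetic cells shared the direction of the plastid genes with ABA, but not their sizes. All 3 markers (CAB1, LHCB2.1 and RBCS1A) were at least 2-fold lower with ABA in the mean of the sets in each genotype. CAB1 had -4.93 in wild type and -1.28 in ZFP3ox, LHCB2.1 had -5.18 and -1.22, and RBCS1A had -1.25 and -1.37. The plastid ribosomal medians were -0.78 and -1.21. The summed level of the 3 markers in set 1 was 1676, 169, 2357 and 1224 RPKM, and in set 2 it was 1013, 104, 1243 and 387. The exception in set 1 was LHCB2.1 in ZFP3ox, with 196 RPKM without and 214 with ABA. None of the 3 was at 0 in any sample. The summed markers were higher in ZFP3ox ABA than in wild-type ABA in both sets. The sum followed CAB1 (mean log2 ratio 4.23) and LHCB2.1 (3.69), while RBCS1A had 0.58 in set 1 and -0.21 in set 2. Of the 11 plastid ribosomal genes, 8 were lower in ZFP3ox ABA in both sets, beside 22.3% of all features. Seed reserve markers (CRA1, PAP85 and OLEO1) went the other way, from 56.9 to 1023 RPKM with ABA in wild type and from 41.5 to 245 in ZFP3ox in set 1 as a sum, and none was at 0. In ZFP3ox 2 of the 3 passed the size rule, and PAP85 was lower with ABA in set 2. All 3 were also at least 2-fold lower in ZFP3ox ABA than in wild-type ABA. The part of either marker list in the result was not tested.

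The lowest ratio of all members belonged to AT1G26880, 1 of 3 genes for cytosolic L34. Its set 1 values were 121, 50.2, 103 and 24.1 RPKM, and those of set 2 were 93.7, 11.1, 26.01 and 7.06. Both ABA samples were below both controls in each set. Its log2 ratios in sets 1 and 2 were -1.25 and -2.96 for wild type, and for ZFP3ox they were -2.05 and -1.74. The authors' deposited table lists signed fold changes of -3.75 for wild type and -3.96 for ZFP3ox. The paralogues had another pattern in set 2. RPL34 had 20.5, 36.4, 37.7 and 38.3 RPKM there and a mean log2 ratio of -0.20 in wild type, and AT3G28900 had 13, 16.1, 21.5 and 8.47 RPKM and also -0.20. Reads that matched up to 10 places were used by the authors, so values of single paralogues are uncertain. The wild-type control value of AT1G26880 in set 2 was above those of both paralogues, while in set 1 it was below them.

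The next genes had the highest mean ABA ratios in wild type among members with the same sign in both sets. Several genes of opposite sign in the sets had means in the same range, such as AT1G34030 (S18) with 0.55 from -0.49 and 1.59. AT2G45710 (small-subunit S27) had 37.8 RPKM in wild-type control and 72.4 in wild-type ABA in set 1, and 1.56 and 2.85 in set 2, for a mean log2 ratio of 0.75. AT5G55140, a bacterial-type L30 gene, had 9.43 and 17.7 RPKM in set 1 and 6.11 and 9.67 in set 2, for a mean of 0.71. AT4G22380, 1 of 3 genes for the SNU13 homologue that binds box C/D small nucleolar RNAs in yeast, had a mean of 0.49, and AT1G06720, a homologue of the yeast small-subunit GTPase factor BMS1, had 0.34. AT1G15250 (L37) had 0.23 and AT4G11630 (bacterial-type L19) 0.22. The member nearest the median was AT1G07070 (L35a) at -0.09. Among the lowest, AT5G64670, a bacterial-type L15 gene, had -0.90.

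The 12 assembly or processing factors had a median mean log2 ratio of 0.12 in wild type (-0.05 with median-of-ratios scaling). Over all features it was 0.15 (-0.004 with that scaling). In set 1, 9 of the 12 factors were lower, beside 7131 of 22646 features. In set 2, 10 of the 12 factors were higher, beside 10868 features. NUC-L1, the major nucleolin and the member of this class with the highest level, had 220.4, 172, 165 and 83.9 RPKM in set 1 and 36.9, 36.5, 19.4 and 26.7 in set 2. Its ABA ratio in wild type was -0.36 and -0.02. RLP24 (AT2G44860) and RRS1 (AT2G37990), factors of large-subunit assembly in yeast, had means of 0.00 and -0.04, each made of a negative ratio in set 1 and a positive one in set 2.

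**Figure D4:**
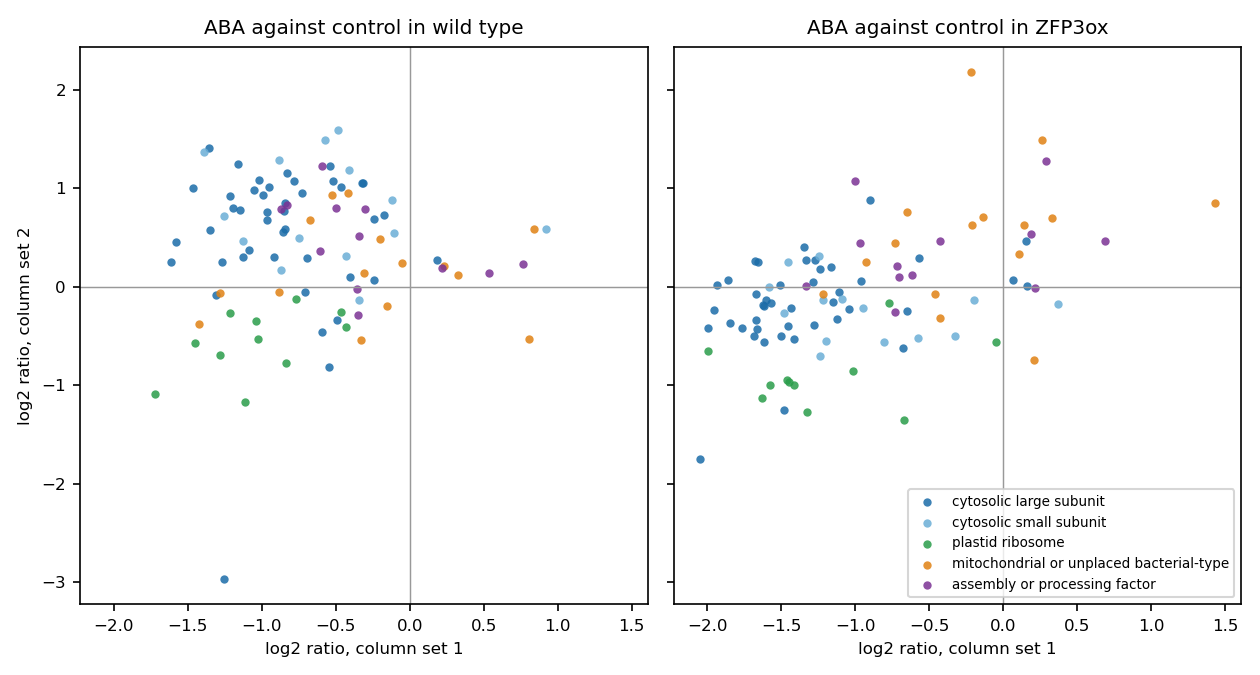
Log2 ratio of ABA to control in column set 1 (horizontal) and column set 2 (vertical) for the 95 ribosome biogenesis genes in wild type (left) and ZFP3ox (right), coloured by class. All 11 plastid genes lie at lower left in both panels, whereas in wild type 48 of 57 cytosolic genes lie at upper left, lower in set 1 and higher in set 2; in ZFP3ox 37 of 57 lie at lower left.

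ABA against control in ZFP3ox gave lower values in more of the members. In the mean of the sets, 19 of 95 were at least 2-fold lower, beside 2.23% of all features, and 1 of 95 was at least 2-fold higher, beside 4.55%. The 19 were 8 of 11 plastid genes and 11 of 43 cytosolic large-subunit genes. Set 1 alone had 54 of 95 at least 2-fold lower, beside 5.49%, and set 2 alone 6 of 95, beside 2.42%. By at least 2-fold in both sets, 5 of 95 were lower, where 0.729% of all features were. The same direction in both sets, lower, was found for 52 of 95 members and 17.0% of all features, and it covered 11 of 11 plastid, 26 of 43 large-subunit and 11 of 14 small-subunit genes. The medians of the 57 cytosolic genes were -1.33 in set 1 and -0.17 in set 2, and that of the plastid genes in the mean of the sets was -1.21, beside 0.21 over all features. Relative to the median of all features, the plastid median was -1.42 in ZFP3ox, against -0.93 in wild type.

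AT1G26880 was again the lowest member, followed by RPL9 at -1.38 and AT3G28900 (L34) at -1.37. In ZFP3ox, AT3G28900 had 133 RPKM without ABA and 46.9 with it in set 1, where set 2 had 21.5 and 8.47. GHS1, emb2184 and AT3G15190 made up the rest of the 6 lowest. The large-subunit genes past the size rule in the mean did so mainly through set 1, and 2 of the 11 reached 2-fold in both sets. AT2G19740 (L31) had 86.4 and 20.96 RPKM in set 1 and 3.69 and 2.52 in set 2, with ratios of -1.99 and -0.41. AT3G56340 (S26), with a mean of -0.61, was the member nearest the median.

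The mitochondrial or unplaced bacterial-type genes did not share that direction in ZFP3ox, with a median mean log2 ratio of 0.21 and 3 of 15 lower in both sets. AT5G63300, a bacterial-type S21 gene, was the 1 member at least 2-fold higher. It had 10.5, 8.25, 5.85 and 17.5 RPKM in set 1, and 4.33, 4.88, 0.84 and 2.32 in set 2. The ZFP3ox control was the lowest sample in both sets. AT5G55140 (0.88), AT1G06720 (0.78), AT4G22380 (0.58), AT5G11750 of the bacterial-type L19 family (0.51) and AT5G27820 of the bacterial-type L18 family (0.39) followed in mean log2 ratio among members with the same sign in both sets. AT3G12370 (bacterial-type L10) had a higher mean of 0.98, made of -0.21 in set 1 and 2.18 in set 2.

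Tested over both genotypes with limma's additive model, the averaged ABA effect passed the threshold for 1 of 95 members, where 0.649% of all features passed. AT1G26880 fell by 2.0 ± 0.23 on the log2 scale (SE, adjusted p = 0.0221, lower with ABA in 4 of 4 column pairs). GHS1 at -1.37 ± 0.23 (adjusted p = 0.0531), emb2184 at -1.22 ± 0.23 (adjusted p = 0.0705) and RPL9 at -1.19 ± 0.24 (adjusted p = 0.0801) did not pass. AT1G64510 at -0.96 ± 0.23 (adjusted p = 0.121) was the last of the 5 members with the lowest p. At an unadjusted p under 0.05 there were 23 of 95 members, 22 of them lower, beside 19.1% of all features in either direction. The model has 1 residual degree of freedom, the departure from additivity, so these p-values set the effect against that departure and a spread borrowed from other genes, not against replicate samples.

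ZFP3ox against wild type without ABA showed no common direction in the members. In the mean of the sets 3 of 95 were at least 2-fold lower, beside 1.58% of all features, and none was at least 2-fold higher, beside 0.954%. In 63 of 95 members the ratio was negative in set 1 and positive in set 2, beside 12.8% of all features, and 47 of these 63 were cytosolic. The 3 lower genes were AT3G55170 (L35) at -1.25, AT5G63300 at -1.14 and AT1G26880 at -1.02. AT3G55170 had 35.1 RPKM in wild-type control and 25.2 in ZFP3ox control in set 1, but 12.2 and 2.21 in set 2, so that its ratio was -0.46 in set 1 and -2.04 in set 2. The other 3 L35 genes had means of 0.08 to 0.29.

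Among assembly or processing factors, 6 of 12 were lower in ZFP3ox without ABA in both sets, as were 17 of all 95 members, beside 20.5% of all features. NUC-L1 had a mean of -0.65 from -0.41 and -0.90, and AT5G46420, a RimM family gene, had -0.68 from -0.09 and -1.27. AT5G11750 (bacterial-type L19) had -0.67. On the other side AT4G11630 of the same family had 0.66 from 14.3 against 12.8 RPKM in set 1 and 5.58 against 1.92 in set 2. AT5G51610 (bacterial-type L11), AT5G03850 (S28), AT1G74270 (L35a), AT4G02230 (L19) and AT3G09500 (L35), the next members with a positive ratio in both sets, had means of 0.29 to 0.50. AT5G46430 had 0.64, made of -0.30 and 1.57. AT3G16780 (L19) was nearest the median at 0.05.

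ZFP3ox against wild type with ABA gave lower values in most cytosolic genes, mostly by less than 2-fold. Both sets were lower for 59 of 95 members, beside 22.3% of all features, and these included 41 of the 57 cytosolic genes. With a mean of at least 1.5-fold as well, 30 of 95 members remained, beside 6.37%. Only 2 of 95 were at least 2-fold lower, beside 2.03%, and none was at least 2-fold higher, beside 2.7%. Set 1 alone had 19 of 95 at least 2-fold lower, beside 2.85%. The cytosolic medians were -0.80 in set 1 and -0.33 in set 2, where all features had 0.14 and -0.03.

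The 2 genes past the size rule were emb2386 and STV1. Both encode large-subunit proteins with known developmental phenotypes, emb2386 (L19) in the embryo and STV1 (SHORT VALVE1, L24) in the gynoecium. For emb2386 wild-type ABA had 283 RPKM and ZFP3ox ABA 119 in set 1, and 52.6 and 24.5 in set 2, which gave ratios of -1.24 and -1.07. It was the 1 member at least 2-fold lower in both sets, beside 0.503% of all features. STV1 had 158 and 77.5 RPKM in set 1 and 27.9 and 13.5 in set 2, with ratios of -1.02 and -0.99. AT3G28900 (L34, -0.90), AT2G19740 (L31, -0.87), AT2G45710 (S27, -0.87) and AT3G15190 (plastid S20, -0.85) were the next lowest, and AT3G53430 (L12) was nearest the median at -0.44.

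The mitochondrial or unplaced class had a median of 0.17 in this comparison, and 3 of 15 were lower in both sets and 6 higher in both. Over all members 9 of 95 were higher in both sets, beside 31.3% of all features. AT5G64670 (bacterial-type L15) had 11 RPKM in wild-type ABA and 18.9 in ZFP3ox ABA in set 1, and 3.22 and 4.84 in set 2, for a mean of 0.60. AT5G51610 (0.58), AT1G77750 (bacterial-type S13, 0.39), AT5G27820 (0.30), AT5G11750 (0.28) and AT1G64510 (plastid S6, 0.19) followed among members with the same sign in both sets. AT3G12370 had the highest mean, 0.78, from -0.26 in set 1 and 1.81 in set 2. The averaged genotype effect passed the threshold for 0 of 95 members in limma, where 0.00883% of all features passed. At an unadjusted p under 0.05 there were 5 of 95 members, beside 7.29% of all features. The lowest p-values belonged to AT1G26880 at -0.91 ± 0.23 (SE, adjusted p = 0.684), NUC-L1 at -0.69 ± 0.23 (adjusted p = 0.684), AT3G55170 at -0.76 ± 0.29, AT1G16740 (bacterial-type L20) at -0.59 ± 0.23 and AT5G51610 at 0.54 ± 0.23 (the last 3 with adjusted p = 0.685).

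**Figure D5:**
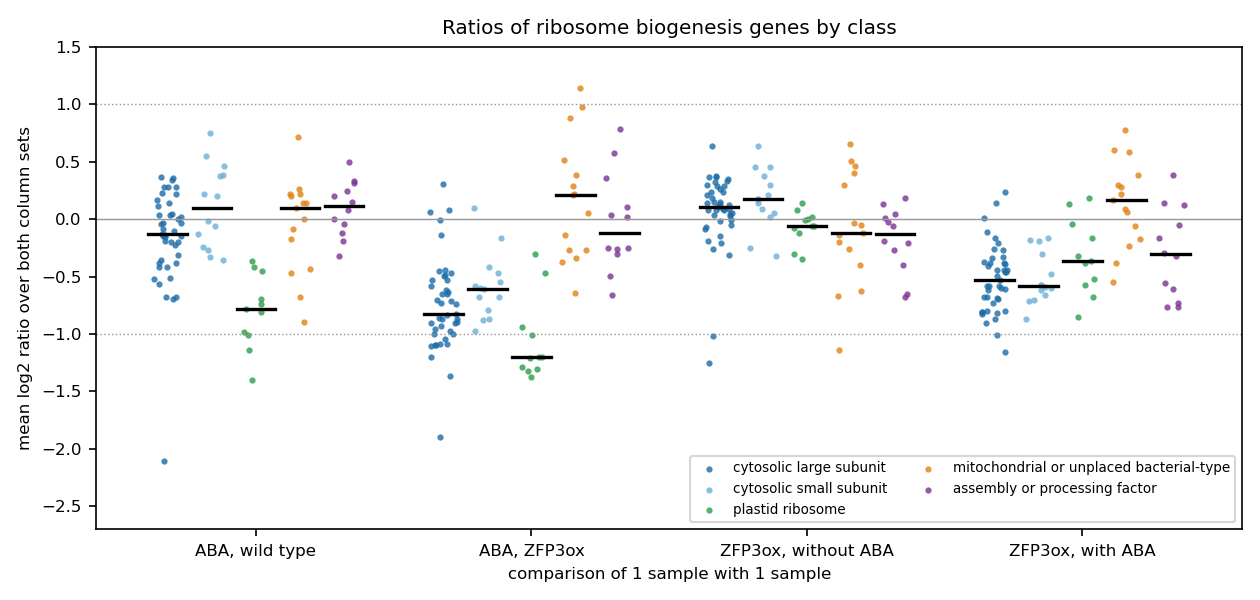
Mean log2 ratio over both column sets of the 95 ribosome biogenesis genes in the 4 comparisons, coloured by class; black bars are class medians and dotted lines mark 2-fold. The plastid median is -0.78 for ABA in wild type and -1.21 for ABA in ZFP3ox; with ABA the cytosolic large-subunit median for ZFP3ox against wild type is -0.53, and that of the mitochondrial or unplaced class is 0.17.

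The ABA ratio in ZFP3ox minus that in wild type was a median of -0.48 over the members, beside 0.04 over all features, and it was negative in both sets for 57 of 95, beside 24.4% of all features. No member reached the 4-fold size rule in the mean, above or below, where 0.336% and 0.185% of all features did. The cytosolic large-subunit genes had a median of -0.67 and the small-subunit genes of -0.69, the plastid genes of -0.37 and the mitochondrial or unplaced genes of 0.16. The lowest value was -1.28 for emb2386 and the highest 1.23 for AT5G63300. All 4 samples enter this value, so no residual is left for a test.

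Members of the same ribosomal protein family did not always move together. Of the 56 families, 25 had 2 or more members, and in 7 of these the members differed by at least 2-fold in the mean ratio of at least 1 comparison. The widest range was that of L34 for ABA in wild type, 1.91 on the log2 scale. In the L35a family, AT3G55750 had 318, 103, 214 and 54.3 RPKM in set 1 and a mean ABA log2 ratio in ZFP3ox of -1.10, while AT1G07070 had 20.8, 17.4, 14.5 and 15.2 RPKM and 0.06. In the L13 family BBC1 had 351, 197, 302 and 94.1 RPKM and -1.0, and AT3G48960, one of the genes below the filter, 0.14. The L35, L37a, bacterial-type L19 and SNU13 families were the others: for ABA in ZFP3ox the SNU13 homologue AT5G20160 had -0.66 and AT4G22380 0.58. In the L35a, L13 and SNU13 families the gene with the highest of these ratios also had the lowest level in wild-type control of set 1. The L34 family was the reverse, since RPL34 had its highest ratio for ABA in ZFP3ox (-0.96) and its highest such level (404 RPKM). The L37a range includes AT3G10950, the other gene below the filter.

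Genes of the wider pathway that do not carry the exact term, from lists of snoRNP proteins, RNA polymerase I subunits, assembly factors and TOR signalling, mostly stayed within 2-fold. Of 10 box C/D and H/ACA snoRNP proteins and nucleolins, none passed the size rule with ABA in either genotype. With ABA in ZFP3ox, 6 of the 10 were lower in both sets, beside 17.0% of all features. Fibrillarin 2 (FIB2), the methyltransferase of box C/D particles, had a mean of -0.11 in wild type and -0.82 in ZFP3ox, NOP56 had -0.54 and -0.86, and the highest ABA ratio in ZFP3ox was that of NUC-L2 (0.87). NUC-L2, the second nucleolin, was the 1 gene of the list past the size rule in ZFP3ox against wild type without ABA, at -1.55 from -0.70 and -2.40. RNA polymerase I subunits NRPA1 and NRPA2 had ABA means of 0.09 and 0.31 for wild type, and for ZFP3ox they were 0.44 and 0.12.

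Of 18 small-subunit assembly factors, 2 were at least 2-fold higher with ABA in wild type, beside 4.65% of all features. They were the rRNA dimethylase DIM1A (1.68) and the RNA helicase RH7 (1.5). DIM1A was below 2-fold in set 1 (0.58, against 2.78 in set 2). The lowest was YAO (-0.62, from 0.13 and -1.37). With ABA in ZFP3ox none passed, and the extremes were IMP4 (0.62) and ENP1 (-0.39). With ABA, DIM1A (-1.26) and RH7 (-1.17) were also at least 2-fold lower in ZFP3ox relative to wild type, with -0.46 for DIM1A in set 1. Of 23 large-subunit assembly factors, NMD3, the adaptor for export of the large subunit, was the 1 gene past the rule with ABA in wild type (1.86) and in ZFP3ox against wild type with ABA (-1.81). Its ratios in set 1 were below 2-fold, at 0.59 and -0.83, beside 3.12 and -2.79 in set 2. EIF6A was lowest with ABA in wild type (-0.75). In ZFP3ox the extremes with ABA were WDR12 (0.65) and NSN1 (-0.74, from -1.84 and 0.35). In set 1 NSN1 had 273 RPKM in ZFP3ox control and 75.7 in ZFP3ox ABA. Without ABA, REIL1 (-1.19) was past the rule in ZFP3ox against wild type, on 0.00 in set 1 and -2.39 in set 2. Of 4 TOR signalling genes kept, 1 was at least 2-fold higher with ABA in wild type, TOR itself (1.0, from 0.79 and 1.21), and RPS6B was lowest with ABA in ZFP3ox (-0.94).

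Markers of dividing cells (9 genes of replication and cytokinesis) had a median ABA ratio of -0.09 in wild type and 0.18 in ZFP3ox, and 1 of 9, MCM2 in ZFP3ox (1.30, from 0.18 and 2.41), passed the size rule. MCM2 was also past the rule in ZFP3ox against wild type with ABA (1.04, from -0.08 and 2.15). The summed level of the 9 genes in set 1 was 195, 196, 185 and 157 RPKM, and in set 2 it was 66.8, 82.6, 51.2 and 82.9. Root hair markers (2 genes) summed to 22.9 to 48.5 RPKM in set 1. EXPA7 was past the size rule with ABA in wild type (-1.09, from -1.89 and -0.28), and COBL9 was not (-0.03). The endosperm marker MAN7 went from 9.72 to 46.7 RPKM with ABA in wild type and from 9.60 to 18.1 in ZFP3ox. No marker was at 0, and their part in the ratios of ribosome biogenesis genes was not tested.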

How the data were processed

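The authors deposited 1 table of RPKM values for 23932 features, with 2 columns for each of 4 samples. Per the file headers, reads were matched as colours and strand-specifically, allowing 2 mismatches and up to 10 matching places, with values made per gene. The aligner and build were not named (not given in the sources used here). The authors' deposited tables of selected genes hold signed fold changes, a score for which the selection rule is not given. Members and gene lists were chosen with earlier results of these data known. Classes and families were read from RefSeq products. Features with at least 1 RPKM in both columns of at least 1 sample were kept (22646, members 95). A pseudocount of 1 was added before taking log2, which understates the ratios of weakly expressed genes. Both columns of a sample counted as 1 replicate. Differences of single samples were counted past 2-fold in the mean of the sets (4-fold for the difference of ABA ratios). Averaged effects came from limma (version 3.58.1, R 4.3.3), adjusted by Benjamini-Hochberg over 22646 features at 0.05. On simulated data it called 3 of 50 genes with an ABA effect of 1 on the log2 scale, and 46 of 50 with an effect of 2. It also called 16 of 22446 unchanged genes. The simulated spread was the one limma had fitted to these data, and the simulated genotypes did not differ in ABA effect. Under these conditions effects of 2-fold were mostly missed.

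Depth in set 1 came from RPKM multiplied by TAIR10.1 exon length: 68.8% to 74.5% of low values lay within 0.1 of a whole read, beside 20.0% by chance. In set 2 the share was 21.5% to 22.0%. Members had a median of 98.7 to 382 reads in set 1. No column lacked a sample. Named members were those with the 6 highest and 6 lowest mean ratios of equal sign in both sets, the member nearest the median, the 5 lowest p, the highest and lowest levels, those in the deposited tables and those of families that differed by 2-fold. From the pathway and marker lists, genes past the rule and some of the extremes were named. Alternatives were other pseudocounts, no filter, median-of-ratios scaling, each set alone, family sums, members with the elongation term, limma-trend and 8 columns as libraries.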

Additional observations from a re-analysis of the deposited data

Results flagged for a closer look

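For 4 of 95 members the ABA ratio had 1 sign in both columns of wild type and the opposite sign in both columns of ZFP3ox. The share of all features with this pattern was not counted. The difference between genotypes was not tested, since no residual is left. AT2G45710 (S27) was higher with ABA in wild type, at 0.92 and 0.59, and lower in ZFP3ox, at -0.20 and -0.13, a difference of -0.92. The other 3 were lower in wild type and higher in ZFP3ox, with a difference of 0.56 for AT5G27820 (bacterial-type L18), 0.95 for AT5G11750 (bacterial-type L19) and 0.99 for AT3G55170 (L35). Wild-type control of AT3G55170 in set 2 was 12.2 RPKM, beside 2.21 to 6.54 in the other samples.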

How the results depend on the processing

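No paired analysis was possible because each group has 1 sample, and no sample could be left out for the same reason. With median-of-ratios scaling, 11 of 11 plastid genes were lower with ABA in each genotype, as in the main analysis. The other alternatives run for class medians could not change this direction. Each plastid gene was already lower in both sets, and leaving out the filter added no plastid gene. Of 86 alternative counts, 58 were within 1.5 times the main count, most of them counts of 0 that stayed at 0. For ABA in wild type the main counts were 0 higher and 4 lower. They became 2 lower with a pseudocount of 5, 28 lower in set 1 alone and 18 higher in set 2 alone. For ABA in ZFP3ox (1 higher, 19 lower) there were 0 higher with a pseudocount of 5, 2 higher with 0.5, and 0 higher and 35 lower with median-of-ratios scaling. Set 1 alone gave 54 lower, beside 5.49% of all features, and family sums 10 lower of 56 families. Set 2 alone gave 4 higher and 6 lower, beside 8.0% and 2.42% of all features. For ZFP3ox without ABA (0 and 3) there were 0 lower with a pseudocount of 5 or in set 1 alone. Family sums gave 1 lower. Set 2 alone gave 5 in each direction, beside 1.07% of all features higher and 9.46% lower. For ZFP3ox with ABA (0 and 2) a pseudocount of 5 and family sums each gave 1 lower. Set 1 alone gave 1 higher and 19 lower, beside 6.2% and 2.85% of all features. In set 2 alone 2 were higher and 1 lower, beside 4.43% and 6.16% of all features. Shares of all features past 2-fold were not counted under other pseudocounts or scaling. The averaged ABA effect (1) had 0 calls with a pseudocount of 5 and in either set alone, 9 with median-of-ratios scaling and 3 with 8 columns as libraries, where 2.92% and 1.05% of all features passed against 0.649% in the main analysis. In the first 3 of these settings AT1G26880 had -1.77, -1.65 and -2.35 and did not pass. The difference of ABA ratios had 1 below in set 2 alone and 0 otherwise. That scaling moved the median of all features from 0.15 to 0.00 for ABA in wild type and from 0.21 to 0.02 in ZFP3ox. The cause of these changes was not tested. Depth of set 2 is unknown, which limits its low values.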
